A study of Mus musculus with 2 samples.

Results

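Satb1, Cux1, Cux2 and Rorb are transcription factor genes that mark upper-layer neurons of the neocortex, and the p300 peaks in and around them were drawn from a map of the dorsal cerebral wall, the developing neocortex, of Swiss Webster mice at E14.5. The genes were listed by name, with earlier results of these data known. The rule that tied peaks to them used no measured value of the peaks other than position, which is also what the counts below compare. A peak was counted for a gene when its midpoint lay inside the gene body or within 500 kb of the gene's transcription start site, taken from the GENCODE vM1 transcript with the longest coding sequence. By this rule the 4 genes held 15 of the 6629 deposited peaks, and no peak was shared between genes. Cux2 had 9 peaks, Cux1 had 4, and Satb1 and Rorb had 1 each.

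The labels name no mutant, transgene or treatment. The piece taken did not include hippocampus or choroid plexus, and it held ventricular zone progenitors, intermediate progenitors and young neurons together. Chromatin from 0.15 g of tissue, fixed in 1% formaldehyde for 15 minutes, gave a single p300 ChIP library and its input, each without replicate. The deposited list gives only the place and number of each called peak on mm9, so the reads behind a peak are not known, and no comparison here measures variation between embryos. In bulk tissue, fewer cells with p300 at a site and less p300 per cell cannot be told apart. The list holds no expression, and the upper-layer label of the genes was not checked from it.

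p300 is a co-activator with histone acetyltransferase activity that is recruited by DNA-bound transcription factors, and its peaks away from promoters are used to find candidate enhancers. Upper-layer neurons are born after deep-layer neurons from the same germinal zones and migrate past them to the surface of the cortical plate. Cux1 and Cux2 are paralogous cut-homeodomain proteins of these neurons and act in their dendrite and synapse formation. Rorb is an orphan nuclear receptor best known for layer IV, and Satb1 is a chromatin organiser that binds AT-rich DNA and is also known from cortical interneurons.

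To show the sequence under the peaks, the middle 200 bases of the widest peak of each gene and of the peak nearest to its start site are given on the plus strand of mm9. All 4 genes lie on the minus strand. For Satb1 and Rorb a single peak filled both roles. Capitals mark matches to any of 11 short motifs that are spelled out with their counts further on. The stretches cover chr17:51900804-51901003 for Satb1 peak 2718, chr5:137266913-137267112 and chr5:137024696-137024895 for Cux1 peaks 5095 and 5093, chr5:122418671-122418870 and chr5:122531067-122531266 for Cux2 peaks 5000 and 5002, and chr19:19381085-19381284 for Rorb peak 3079.
Satb1 peak 2718: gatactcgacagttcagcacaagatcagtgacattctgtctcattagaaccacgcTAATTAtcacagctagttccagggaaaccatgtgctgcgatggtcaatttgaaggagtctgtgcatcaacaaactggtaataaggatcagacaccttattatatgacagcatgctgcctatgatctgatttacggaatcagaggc
Cux1 peak 5095: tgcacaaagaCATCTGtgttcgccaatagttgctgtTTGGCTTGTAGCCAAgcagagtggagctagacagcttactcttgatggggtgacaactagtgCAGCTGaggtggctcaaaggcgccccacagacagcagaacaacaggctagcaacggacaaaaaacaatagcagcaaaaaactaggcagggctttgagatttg
Cux1 peak 5093: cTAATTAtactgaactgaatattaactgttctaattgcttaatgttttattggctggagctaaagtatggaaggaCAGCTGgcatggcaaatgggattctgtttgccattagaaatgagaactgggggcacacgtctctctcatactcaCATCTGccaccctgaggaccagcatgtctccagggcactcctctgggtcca
Cux2 peak 5000: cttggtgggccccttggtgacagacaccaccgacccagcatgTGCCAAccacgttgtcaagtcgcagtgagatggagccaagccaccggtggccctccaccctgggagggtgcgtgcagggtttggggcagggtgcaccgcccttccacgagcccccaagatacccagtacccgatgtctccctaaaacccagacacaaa
Cux2 peak 5002: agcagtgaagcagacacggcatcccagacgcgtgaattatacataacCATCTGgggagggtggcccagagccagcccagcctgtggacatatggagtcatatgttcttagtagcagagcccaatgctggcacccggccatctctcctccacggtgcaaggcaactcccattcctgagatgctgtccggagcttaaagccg
Rorb peak 3079: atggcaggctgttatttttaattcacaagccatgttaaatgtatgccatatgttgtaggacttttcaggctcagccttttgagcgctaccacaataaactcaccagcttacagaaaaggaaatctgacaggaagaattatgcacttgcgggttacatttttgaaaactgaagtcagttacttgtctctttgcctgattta

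Cux2 had the most p300 peaks. The gene (ENSMUSG00000042589, minus strand, chr5:122308396-122500111) is 192 kb long, and 9 peaks fell in its window of 1 Mb where the genome-wide average would put 2.59, a fold of 3.47. The count passed the test against the length of the window (exact binomial test, one-sided, with Benjamini-Hochberg adjustment over 22367 protein-coding genes, adjusted p = 0.0354). Of all protein-coding genes, 4.09% passed this test, and 4.11% had as many peaks as Cux2 or more. The window is not private to Cux2. It held the start sites of 20 other protein-coding genes, 11 of which passed the same test. The call rested on few peaks: with windows of 490 kb either side, which leave out peak 5003, the Cux2 count was 8 (adjusted p = 0.0808 by the same exact test), and when the expected number was taken from chromosome 5 alone the adjusted p was 0.171. It was also lost with windows of 1000 kb either side, with neighbouring peaks joined and with the wider peaks alone.

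Inside the Cux2 gene body the excess was larger. There, 6 peaks were found where 0.497 would be expected from the length of the gene, a fold of 12.1 (adjusted p = 0.00897 by the corresponding exact test over the same genes). Only 0.219% of protein-coding genes passed this test on gene bodies, and 70 genes, Cux2 included, held 6 or more peaks. None of the 20 neighbours passed it, but no peak of the window lay inside another protein-coding gene, so position already settled this. The call was lost when peaks less than 5 kb apart were joined, which left 5 (adjusted p = 0.0948 by that exact test), and when only peaks that reached the median width were kept, which left 4 (adjusted p = 0.0979).

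The 6 intragenic peaks of Cux2 stretched over 87.0 kb between their outermost midpoints and all lay in introns. Intron 2, which is 119 kb long in the transcript used, held peaks 4999 (chr5:122398386-122399447), 5000 (chr5:122418097-122419444) and 5001 (chr5:122426268-122427002). Their midpoints lay 101, 81.1 and 73.2 kb downstream of the start site. Peak 5000 was the widest of the 15, at 1348 bp, and 79.5% of all peaks were narrower. Intron 4 held peaks 4997 (chr5:122352684-122353732) and 4998 (chr5:122354757-122355510), at 147 and 145 kb from the start. These were the closest pair of the set, with 1.02 kb between their edges. Peak 4996 (chr5:122339097-122340215) lay in intron 5, 160 kb from the start, and was 1119 bp wide.

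Outside the gene, Cux2 had 3 further peaks, and each lay nearer to where another protein-coding gene starts. Peak 5002 (chr5:122530628-122531705) lay 31.3 kb upstream and was the closest to the Cux2 start, but only 19.8 kb from the start of Myl2, a cardiac myosin light chain gene. Peak 4995 (chr5:122292387-122293348) lay beyond the 3′ end of Cux2 and 6.0 kb from the start of Sh2b3, which encodes the signalling adaptor Lnk. Peak 5003 (chr5:122997260-122997918) was the farthest inside the window, at 498 kb upstream, and the next peak outside it was 810 kb away on the other side. Of the peaks inside Cux2, 4996 to 4999 were nearer to the start of Fam109a than to that of Cux2. Counting only peaks whose nearest protein-coding start was that of Cux2 left 2. The 2.59 expected belongs to the whole window, shared with 20 other start sites. It is therefore no expectation for this narrower count.

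Cux1, the paralog of Cux2 on the same chromosome, had 4 peaks in its window, a fold of 1.54 over the genome average that did not pass the test (adjusted p = 1, exact test). The gene (ENSMUSG00000029705, minus strand, chr5:136724005-137043301) is 319 kb long, more than Cux2, and held 2 of the 4 in introns, where 0.827 would be expected (adjusted p = 1, the same exact test). Peak 5093 (chr5:137024359-137025232) lay in intron 1, at 18.5 kb from the start site, and was the closest of all 15 to the start site of its own gene. Peak 5092 (chr5:136858008-136858723) lay 185 kb from the start in intron 4, where the annotation also places the lincRNA Gm16599. Its nearest protein-coding start site was that of Sh2b2, another signalling adaptor gene, 138 kb away.

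The other peaks of Cux1 lay upstream. Peak 5094 (chr5:137078870-137079573) was intergenic, 35.9 kb from the Cux1 start and 11.98 kb from that of the gene model 4731417B20Rik. Peak 5095 (chr5:137266552-137267472) lay 224 kb upstream, within Emid2, a collagen gene. All 4 peaks of Cux1 were narrower than the median peak of the list, so that a list restricted to the wider peaks held none of them. The window of Cux1 contained 17 other protein-coding start sites, of which 0 passed the test.

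Satb1 had a single p300 peak. The gene (ENSMUSG00000023927, minus strand, chr17:51875512-51972615) is 97.1 kb long, and peak 2718 (chr17:51900409-51901397) lay inside its intron 9, 51.1 kb downstream of the start site and 6.31 kb from the nearest exon. The peak was 989 bp wide, close to the median of 1017 bp over all peaks. It stood alone in its region, with the preceding peak ending 1825 kb before it and the next beginning 1825 kb after it. Only 27 of the 6629 peaks were farther from their nearest neighbour. Stretching from chr17:50075717 to 53726314, 3651 kb of fully assembled sequence with 13 protein-coding start sites held no other peak. No other protein-coding gene starts within the Satb1 window.

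Rorb also had a single peak, and none inside the gene. The gene (ENSMUSG00000036192, minus strand, chr19:19005095-19185686) is 181 kb long, and its body would hold 0.468 peaks at the genome average. Peak 3079 (chr19:19380806-19381563) lay in intergenic sequence 306 kb upstream of the start site used. That start is 110 kb inside the outermost annotated 5′ end of Rorb, and from the nearest annotated exon the peak was 195 kb away. It was 758 bp wide, and 12.5% of the peaks of the list were narrower. As at Satb1, the neighbours were far, 2426 kb on the near side. Only 13 peaks were more isolated, and the 4901 kb between the flanking peaks contained 20 protein-coding start sites and no second peak. Over the whole list, the median distance from a peak to its nearest neighbour was 48.7 kb, and 1.96% of peaks had no neighbour within 1000 kb.

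**Figure D1:**
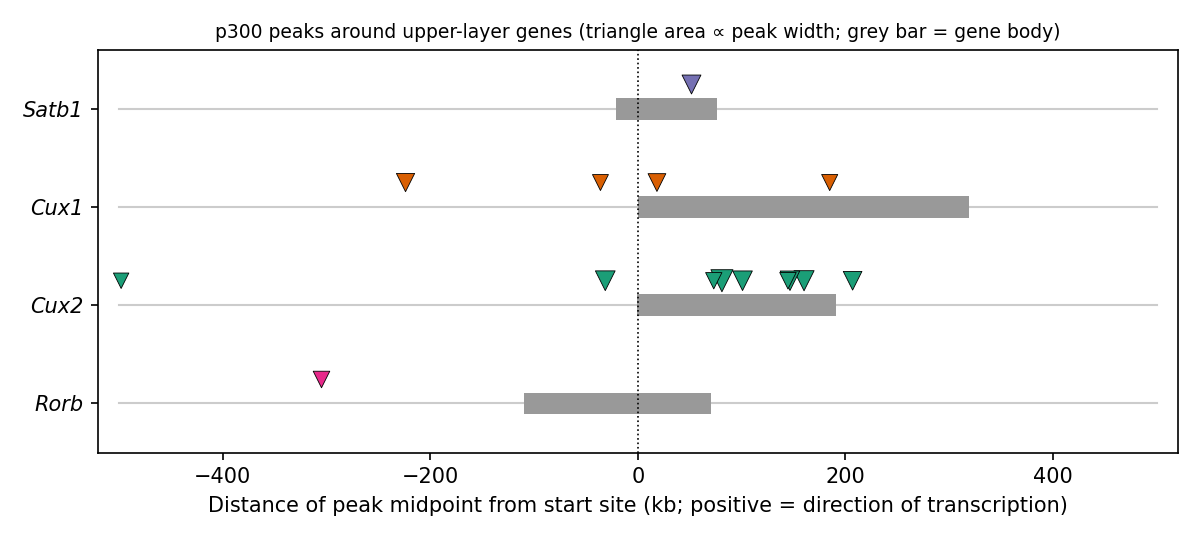
Position of the 15 p300 peak midpoints (triangles, area proportional to peak width) by distance from the transcription start site in kb, 1 row per gene, with positive values in the direction of transcription and the gene body as a grey bar. Cux2 has 6 peaks within its body between 73.2 and 160 kb, Cux1 has 2, Satb1 has 1 and Rorb has none.

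The numbers of peaks followed the order Cux2, Cux1, then Satb1 and Rorb at the same level. In the windows of equal length these are densities of 9, 4 and 1 peaks per Mb, with exact Poisson 95% intervals, covering counting error only, of 4.12 to 17.1 for Cux2, 1.09 to 10.2 for Cux1 and 0.0253 to 5.57 for Satb1 and for Rorb. None of the 6 pairs of genes passed a two-sided exact binomial test of the 2 counts after Benjamini-Hochberg adjustment over the pairs. Cux2 against Rorb had a ratio of 9 (95% interval 1.25 to 394, adjusted p = 0.0645 by the exact test), and Cux2 against Satb1 had the same counts. Between the paralogs, Cux1 had 0.444 times the density of Cux2 (95% interval 0.100 to 1.59, adjusted p = 0.45 by the exact test), an interval that holds no difference as well as a large one.

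The genes also differed in how near the peaks lay. Within 25 kb of the start site only Cux1 had a peak, and within 50 kb Cux1 had 2, Cux2 had 1 and the others had 0. At 100 kb Cux2 had 3, and at 250 kb it had 8 against 1.30 for the genome average. Satb1 gained its peak between 50 and 100 kb and no more up to 1000 kb, where the average would be 5.18. Rorb had 0 peaks up to 250 kb. Over all protein-coding genes the median distance from start site to closest p300 peak was 262 kb. The distances of Cux1 (18.5 kb), Cux2 (31.3 kb) and Satb1 (51.1 kb) were shorter and that of Rorb (306 kb) longer. The Rorb values depend on the start site used. Its outermost annotated 5′ end, 110 kb from that start, lay 195 kb from the peak, which is within 250 kb and shorter than 262 kb. In all, 12 of the 15 peaks were more than 50 kb from the start of their gene.

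**Figure D2:**
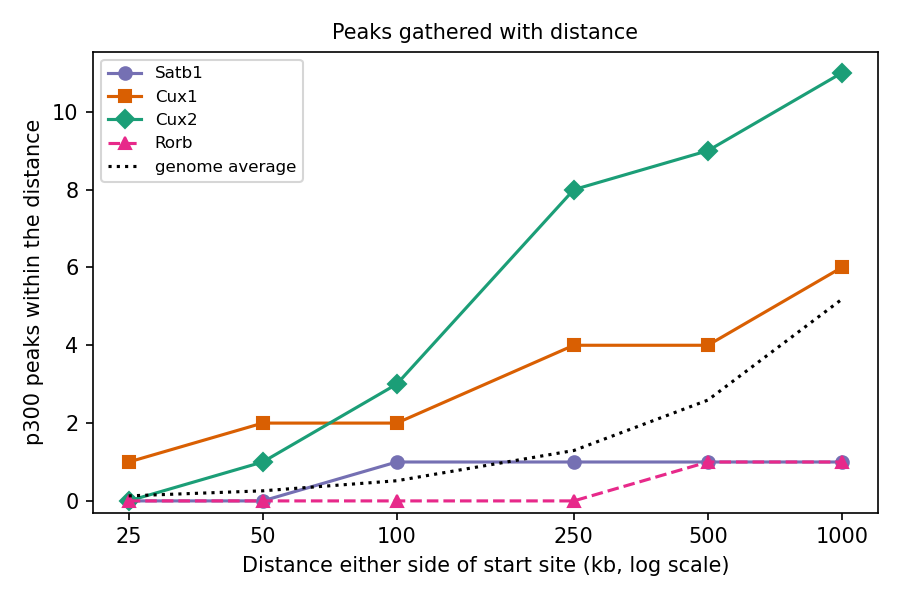
Number of p300 peaks within a given distance either side of the start site (x axis in kb, log scale) for each gene, with the genome average as a dotted line. Cux2 rises from 1 peak at 50 kb to 8 at 250 kb, while Satb1 has no peak up to 50 kb and 1 from 100 kb on, and Rorb none up to 250 kb and 1 from 500 kb on. Distances for Rorb are from the start site used, which is 110 kb inside its outermost annotated 5′ end.

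For comparison, the same count was made for 10 other genes of upper-layer neurons and 5 genes of deep-layer neurons. The other upper-layer genes had a median of 3 peaks, against 2.5 for the 4 members, 7 for the deep-layer genes and 1 for all protein-coding genes. Against 4.09% of all protein-coding genes, 1 of the 10 upper-layer genes passed the window test. It was Mdga1, a cell-surface protein of migrating upper-layer neurons, with 16 peaks (adjusted p = 3.92e-06 by the exact test over all protein-coding genes). Of these, 3 lay inside the gene, 4 upstream and 9 downstream. The Mdga1 window held 8 other protein-coding start sites, and the start used is 81.5 kb from the outermost annotated one. Lmo4, a LIM-only transcriptional co-factor, had 8 (adjusted p = 0.087 by the exact test). Bhlhe22, a bHLH factor, had 5, and Inhba, a subunit of activin, had 4. The POU factor genes Pou3f2 and Pou3f3 had 3 each, as did the netrin receptor gene Unc5d and the adhesion gene Pvrl3. The semaphorin receptor gene Plxnd1 had 1, and Rasgrf2, an exchange factor for Ras, had 0 in a window with 0.727 Mb of assembled sequence.

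Of the 5 deep-layer genes, 2 passed, where 4.09% of all protein-coding genes did. Fezf2, which directs subcerebral projection neurons, and the corepressor gene Tle4 had 10 peaks each (adjusted p = 0.0131, the same exact test). Tbr1 and Foxp2 had 7 and Bcl11b had 6, which did not pass. Cux2 with 9 lay among the deep-layer values, and Cux1, Satb1 and Rorb lay below all 5. The lists were not tested against each other. By the numbers of peaks upstream, in the body and downstream, the listed gene most like Cux2 was Foxp2 (Euclidean distance 1.41), the gene most like Satb1 was Plxnd1, with the same 3 numbers, that most like Cux1 was Unc5d and that most like Rorb was Rasgrf2, both at a distance of 1. These likenesses rest on 1 library and a few peaks.

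**Figure D3:**
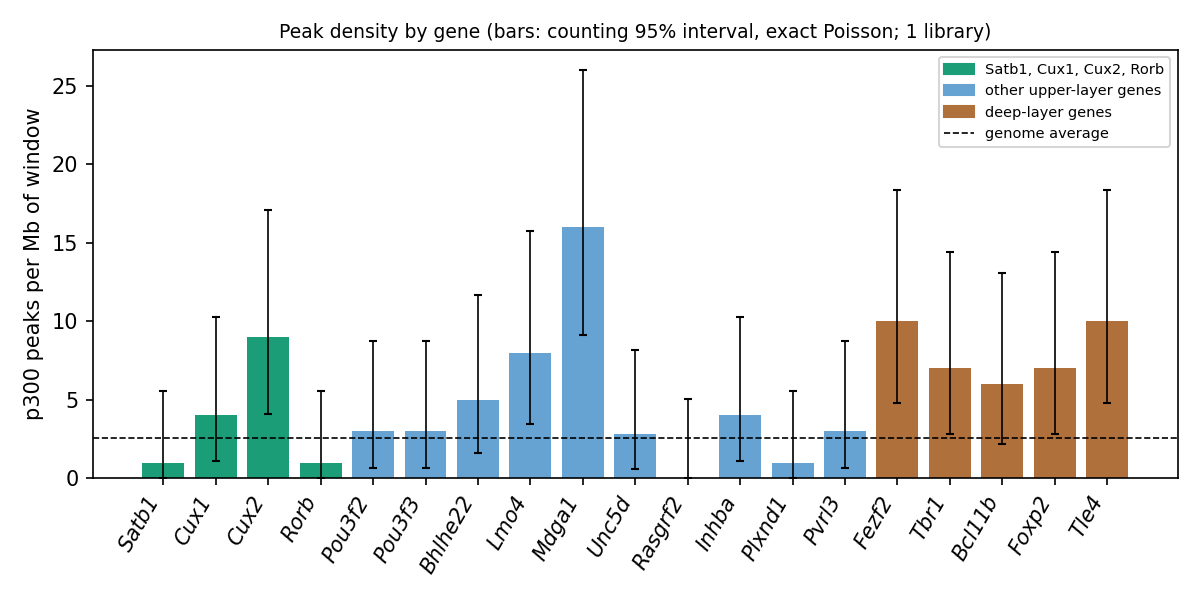
p300 peaks per Mb of window (y axis) for the 4 genes, 10 other upper-layer genes and 5 deep-layer genes, with exact Poisson 95% intervals for counting error as error bars and the genome average of 2.59 peaks per Mb as a dashed line. Cux2 stands at 9, Satb1 and Rorb at 1, and the deep-layer genes between 6 and 10.

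The 15 peaks had a median width of 921 bp (95% interval from order statistics 735 to 1062 bp) and ranged from 659 to 1348 bp, against a median of 1017 bp for all peaks. Of them, 5 reached that median, and all 5 belonged to Cux2: peaks 4996, 4997, 4999, 5000 and 5002. The narrowest was peak 5003, at the edge of the Cux2 window. Width is the only property of a peak that the list allows, and it is not a measure of p300 signal.

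The peaks of the paralogs were richer in GC than those of the solitary genes. The median GC content was 53.2% for the 9 peaks of Cux2 and 48.9% for the 4 of Cux1, and the single values were 41.5% for Satb1 and 40.9% for Rorb. Over all 6629 peaks the median was 45.2%. The surrounding sequence followed the same order, with 48.8% in the window of Cux2, 48.5% in that of Cux1, 41.2% in that of Satb1 and 39.9% in that of Rorb. Of the Cux2 peaks, 8 of 9 were above the GC content of the window, but the gene body had 52.4%, and only 3 of the 6 peaks inside it were above that. At Cux1, 2 of 4 peaks were above the GC content of the window. The highest, peak 4995 near Sh2b3, reached 58.2% and exceeded 97.8% of all peaks.

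**Figure D4:**
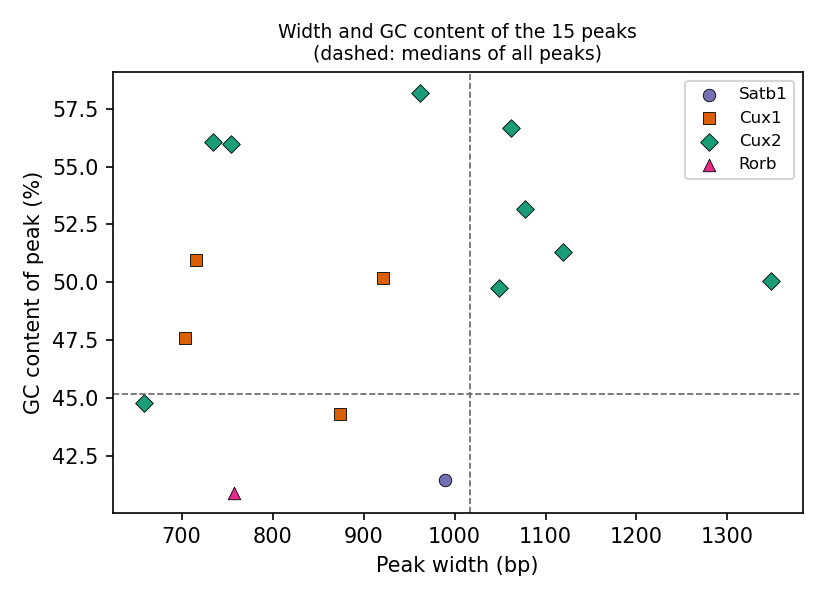
GC content in percent (y axis) against width in bp (x axis) of the 15 peaks, by gene, with dashed lines at the medians of all 6629 peaks, 45.2% and 1017 bp. All 5 peaks that reach the median width belong to Cux2, and the single peaks of Satb1 and Rorb have the lowest GC content.

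Short motifs were searched on both strands of the middle 500 bases of every peak, and a match is a description of the letters only. The E-box CATCTG, read as CAGATG on the other strand and bound by Neurod and Neurog factors, was present in 11 of the 15 peaks (73.3%, exact Clopper-Pearson 95% interval 44.9 to 92.2%). It was present in 57.4% of all peaks and in 35.3% of windows of equal length placed 10 kb downstream of each peak. The LIM homeodomain core TAATTA was in 8 of the 15 (53.3%, interval 26.6 to 78.7%), against 31.3% of all peaks and 15.1% of the downstream windows. The E-box CAGCTG was in 7 (46.7%), against 39.7% of all peaks. The Nfi monomer TTGGCA was in 8, against 42.4%. All of these intervals contain the share of all peaks.

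Other letters were rarer. The Sox motif ACAATG was in 2 of the 15 (13.3%, interval 1.66 to 40.5%), peaks 4999 and 5001 of Cux2. It was in 27.1% of all peaks, a share inside that interval, and in 25.4% of the downstream windows. The POU octamer ATGCAAAT, bound by factors such as Pou3f2, was in 1 of the 15 and in 7.60% of all peaks. Its single match, at chr5:122426457-122426464, was in peak 5001 of Cux2. The full Nfi dimer was counted by exact letters, TTGGC and its reverse complement with 5 bases of any kind between them. It was found in 1 of the 15 and in 18 of 6628 peaks without unassembled bases in the window (0.272%). That match, TTGGCTTGTAGCCAA at chr5:137266949-137266963, lies in peak 5095 upstream of Cux1 and is in capitals in the sequence above, between an E-box CATCTG and an E-box CAGCTG. Looser matches to the dimer were not counted. The paper predicted its Nfi motifs with position weight matrices and reports them in a larger share of its peaks, so the shares cannot be compared. The Rfx monomer GTTGCCA (9.67% of all peaks), the Cux motif ATCGAT (1.39%), the Ror motif TAGGTCA (3.20%) and the T-box motif AGGTGTGA (3.03%) were in 0 of the 15, which allows a share of up to 20%. When whole peaks were searched instead, the Rfx, Cux and Ror motifs were each in 2 of the 15, against 16.5%, 3.65% and 8.59% of all peaks, and the T-box motif was still in 0.

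Peak 5001 in intron 2 of Cux2 held 6 of the 11 motifs, the most of the set, where the median was 2 for the 15 peaks and 2 for all peaks. It was chosen for printing after these counts were seen. Its middle 300 bases, at chr5:122426486-122426785, hold 2 copies of the E-box CATCTG, 2 Nfi monomers and an E-box CAGCTG that overlaps the second monomer. The POU and Sox matches lie outside this stretch, and the TAATTA match runs into its first bases and is cut by its edge.
Cux2 peak 5001: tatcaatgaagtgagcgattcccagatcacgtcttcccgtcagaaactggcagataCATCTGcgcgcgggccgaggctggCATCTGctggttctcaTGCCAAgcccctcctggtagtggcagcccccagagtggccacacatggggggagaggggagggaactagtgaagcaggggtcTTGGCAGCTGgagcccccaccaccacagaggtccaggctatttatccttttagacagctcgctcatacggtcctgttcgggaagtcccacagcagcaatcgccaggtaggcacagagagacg
By contrast, peak 3079 of Rorb held 1 of the 11 motifs, the E-box of Neurod and Neurog, which is cut by the left edge of the 200 bases printed, so that these show no capitals. Peak 2718 of Satb1 held 3, namely that E-box, TAATTA and an Nfi monomer.

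**Figure D5:**
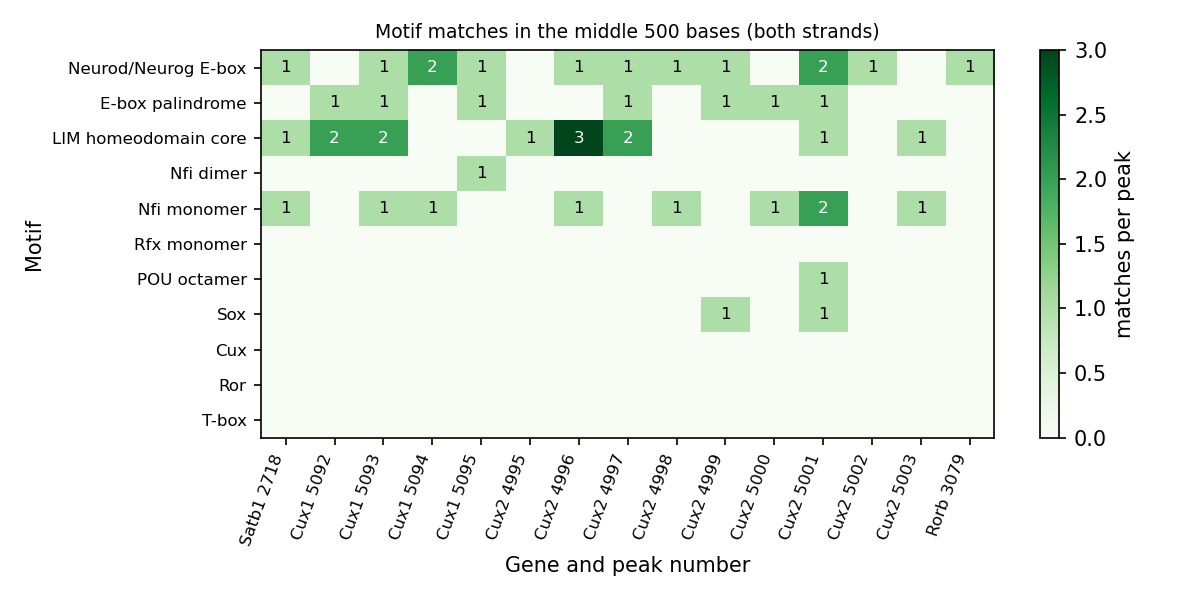
Number of matches to each of 11 motifs (rows) in the middle 500 bases of each of the 15 peaks (columns, by gene and peak number), on both strands, with the number printed in each filled cell. Peak 5001 of Cux2 has 6 kinds of motif, and 4 motifs have no match in these 500 bases of any of the 15 peaks.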

How the data were processed

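The authors aligned the reads of the p300 ChIP and input libraries to mm9 with ELAND, kept unique alignments and called peaks over the input with MACS, whose version is 1.4 per the labels. Their filters mean that the list leaves out promoters and exons by design, so binding at the promoters of the genes described is not covered, nor are places where reads may not map uniquely. The deposited list gives the chromosome, start and end of 6629 peaks, in bases, with no score or read count, so depth per peak is unknown. No data of the input library were used here. Positions were compared with NCBIM37, which is the mm9 assembly (2.56 Gb assembled on the chromosomes), and GENCODE vM1.

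Windows and gene bodies of all 22367 protein-coding genes were counted, and each count was compared with the share of assembled bases by an exact binomial test, one-sided, with Benjamini-Hochberg adjustment and a threshold of 0.05. This compares positions with uniform placement in 1 library, and windows of neighbouring genes overlap. Shares carry exact Clopper-Pearson intervals, and a count of 0 is given with the limit of 3 counts, both for counting error only. The text names the members, the genes nearest to or around their peaks, and lists of 10 upper-layer and 5 deep-layer genes. Members and lists were chosen with earlier results of these data known. Scripts were tested on simulated data. Python 3.11.15, numpy 2.4.6, scipy 1.17.1 and matplotlib 3.10.9 were used.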

Additional observations from a re-analysis of the deposited data

How the results depend on the processing

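The call for the 9 peaks in the Cux2 window kept its side of the threshold with 250 kb either side (8 peaks, adjusted p = 0.00481, exact binomial test), any overlap, the outermost start site, all annotated genes, and bases outside exons and start sites, the last chosen after the data were seen. It was lost with 1000 kb (11 peaks, adjusted p = 0.159 by the exact test), with only the peaks that reach the median width (5, 0.192), with peaks under 5 kb apart joined (8, 0.089), with chromosome 5 alone (9, 0.171) and with 490 kb, added after the data were seen (8, 0.0808). With peaks nearest to their own gene alone, Cux2 kept 2 and Cux1 kept 1. The expected number of 2.59 is for whole windows shared with other genes, so it cannot judge these 2 counts. With the wider peaks Cux1 had 0, below the 1.30 expected. In gene bodies the wider peaks left 4 for Cux2 (adjusted p = 0.0979, exact test) and 0 for Cux1 and Satb1, and joining left Cux2 with 5 (0.0948). The number of protein-coding genes passing the window test was 914, and became 468 with 250 kb, 1537 with 1000 kb, 459 with the wider peaks, 515 with joined peaks and 1573 of 37273 with all annotated genes. Satb1 had a higher density than Cux1 in gene bodies alone (exact p = 0.549). In the middle 300 bases the Sox and POU motifs matched 0 of the 15 peaks. In whole peaks the Rfx, Cux and Ror motifs each matched 2 of the 15, against 0 in the middle 500 bases. The causes were not tested. No paired analysis was possible because there is 1 p300 library without replicates. Depth per peak is unknown, so weaker p300 signal around Rorb and Satb1 was not detectable from the list.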
